A study of Arabidopsis thaliana with 6 samples.

Results

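The comparison set out here is between the stele, the vascular cylinder at the centre of the root, and the columella root cap, the cells at the root tip that cover the meristem. It rests on 2 of the 6 libraries of the series, 1 from each cell type, and was made over 18028 of 33554 loci, those at 1 FPKM or more in at least 1 of these 2 libraries. FPKM is a fragment count divided by transcript length and by library size. RNA was sequenced from cells sorted by fluorescence from roots of Arabidopsis thaliana seedlings grown upright for 6 days on medium with sucrose under long days. Stele cells were sorted from the line ProWOL:GFP, in which the WOL promoter drives green fluorescent protein, and columella root cap cells from PET111, an enhancer trap whose reporter follows a nearby enhancer. The other 4 libraries served as points of reference: epidermis from ProWER:GFP, cortex from ProAT1G09750:GFP, and endodermis from ProSCR:GFP in line 1 and in line 2. All lines carry a reporter transgene, and every library passed through dissociation and sorting. The WER promoter is also known to be active in the lateral root cap.

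One library on each side has no replicate check, so genes were called by size and carry no p-value from these 2 libraries. A gene was called when its values differed at least 4-fold on the log2(FPKM + 1) scale, which is a log2 difference of 2 and needs at least 3 FPKM on the higher side. All differences below are stele minus columella root cap on this scale. The only pair of libraries of 1 cell type, the endodermis lines, gave the spread for a secondary test with limma. That test takes each single library to be as variable as these lines, so its p-values measure their spread alone, which may be technical. In sorted bulk samples, fewer cells of a type and less RNA per cell cannot be told apart.

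The stele of a young root holds a xylem axis flanked by phloem, with dividing precursor cells between them. The transcription factors SHR, TMO5 and LHW and the class of homeodomain factors that includes CNA are known to pattern this tissue, together with auxin and cytokinin. Columella cells arise from their own stem cells, stop dividing soon after, fill with starch grains that settle with gravity, and are shed at the tip. NAC factors such as SMB and FEZ control the divisions, maturation and death of root cap cells, and RGF peptides secreted at the tip maintain the meristem.

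The marker genes were high on the sides that the labels give. CNA, a homeodomain factor of vascular patterning, stood at 86.3 FPKM in stele and 3.18 in columella root cap, with 0.0899 in epidermis, 4.73 in cortex and 3.97 and 1.84 in the endodermis lines. RGF2, a peptide of the root tip, stood at 0.631 FPKM in stele and 1377 in columella root cap, and between 1.68 and 8.62 in the other 4 libraries. Each marker was thus highest of the 6 libraries in the one that it marks. RGF2 overlaps the neighbouring gene AT1G13630, and without stated strand use their fragments cannot be told apart. WOL, the cytokinin receptor gene whose promoter chose the stele cells, was less sharp, with 46.0 FPKM in stele, 10.3 in columella root cap, 30.7 in epidermis and 18.7 to 24.6 in cortex and endodermis.

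Between stele and columella root cap, 1072 genes (5.95% of those compared) were at least 4-fold higher in stele and 2087 (11.6%) at least 4-fold higher in columella root cap. The columella side was also the more extreme, with 1063 genes past 8-fold and 244 past 32-fold, against 204 and 2 on the stele side. The median difference of all genes compared was 0.13, with 9637 genes (53.5%) above in stele by any amount and 8391 (46.5%) above in columella root cap. With limma and Benjamini-Hochberg adjustment, 205 genes (1.14%) were higher in stele and 1237 (6.86%) higher in columella root cap at an adjusted p under 0.05, and 154 and 997 of the 4-fold calls were among them. Between the endodermis lines the same 4-fold rule called 1325 of 17826 genes (7.43%) higher in line 1 and 44 (0.247%) higher in line 2, in all 1369 (7.68%).

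Most called genes were at the extremes of the whole set of cell types. Stele was the highest of the 5 cell types for 917 (85.5%) of the 1072 genes called in stele, against 35.4% of all genes compared, and columella root cap was the lowest for 696 of them (64.9%), against 19.2%. Epidermis was the lowest cell type for a further 364. Columella root cap was the highest for 1459 (69.9%) of the 2087 genes called on its side, against 27.8% of all genes compared, and epidermis was the highest for 542 (26.0%). Stele was the lowest of the 5 for 1567 of them (75.1%), against 22.9% of all genes compared. These placements use the same 2 libraries as the calls and were not tested.

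**Figure D1:**
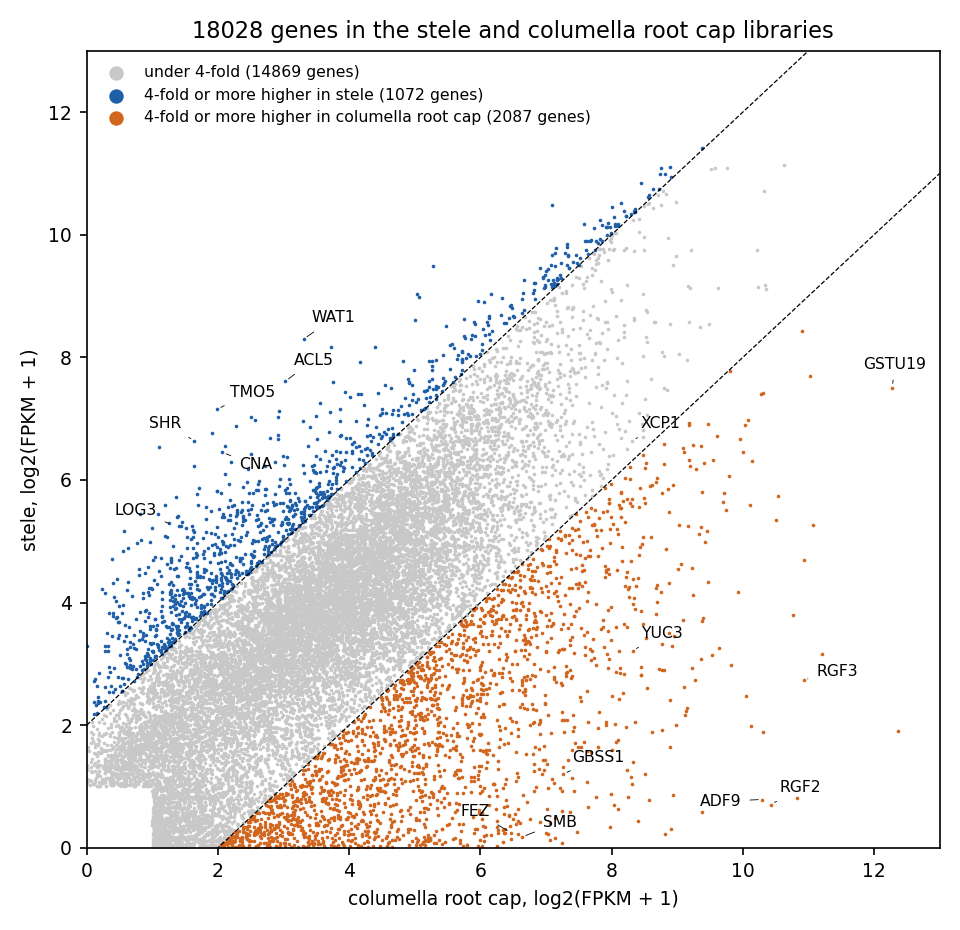
Each point is 1 of 18028 genes, with log2(FPKM + 1) in columella root cap on the horizontal axis and in stele on the vertical axis, 1 library each; dashed lines mark a 4-fold difference. Blue points (1072) lie above the upper line and orange points (2087) below the lower line, and the orange cloud reaches farther from the lines, down to RGF2 and ADF9.

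The 15 largest differences on the stele side ranged from 4.40 to 5.44 and were of mixed function. The largest was AT3G42800, an AF-like protein, at 92.3 FPKM in stele, 1.16 in columella root cap and 0.0807 to 4.43 in the other 4 libraries. WAT1, a tonoplast protein needed for secondary walls, stood at 314 FPKM in stele and 8.89 in columella root cap. PID2, a kinase of the family that acts on auxin carriers, stood at 35.0 and 0.489 FPKM. Of the 15, TMO5, SHR, ACL5 and T5L1 belong to vascular patterning and are described below.

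The largest differences on the columella side were of another order, from -7.62 to -10.46 for the first 15 genes. AT5G54370, a protein like those of late embryogenesis, stood at 2.75 FPKM in stele and 5288 in columella root cap, and at 1463 in epidermis against 5.01 to 33.0 in cortex and endodermis. AT1G50060, a secreted protein of the CAP family, stood at 0.757 FPKM in stele and 1816 in columella root cap, with 351 in epidermis. High epidermis values were thus shared by some of these genes. They were not shared by ADF9, an actin depolymerizing factor, which stood at 0.727 FPKM in stele, 1258 in columella root cap and 10.7 or less in the other 4 libraries. The first 15 also held the peptide genes RGF2 and RGF3, the blue-copper protein BCB at 2.94 against 1112 FPKM, and the jasmonate-linked genes JRG21 and TAT3.

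Of 22 genes entered in the list of vascular patterning, 21 were compared. Of these 13 (61.9%) were called in stele and 1 (4.76%) in columella root cap, against 5.95% and 11.6% of all genes compared. The median difference was 2.23, against 0.13 for all genes. Stele was the highest cell type for 18 of the 21. TMO5, a basic helix-loop-helix factor that triggers divisions of vascular cells, stood at 141 FPKM in stele, 2.96 in columella root cap, 0.441 in epidermis, 7.2 in cortex and 22.5 and 2.53 in the endodermis lines. The difference was 5.17 ± 1.34 (SE), 35.9-fold on the FPKM + 1 scale, with an adjusted p of 0.0033 in limma. Its close relative T5L1 stood at 126 and 4.91 FPKM, and LHW, the partner of both, at 38.5 and 7.44 FPKM.

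SHR, the mobile factor made in the stele that specifies the layer around it, stood at 98.8 FPKM in stele, 2.12 in columella root cap, 0.193 in epidermis, 7.27 in cortex and 11.6 and 16.7 in endodermis lines 1 and 2. Its difference was 5.0 ± 1.34 (SE), with an adjusted p of 0.0048 in limma. The genes that act downstream of TMO5 and LHW lay on the same side. LOG3 and LOG4, enzymes that release active cytokinin, stood at 38.2 and 22.3 FPKM in stele and 1.38 and 0.735 in columella root cap, and AHP6, which damps cytokinin signalling in protoxylem, at 27.7 and 0.461 FPKM. ACL5, which makes thermospermine and holds back xylem maturation, stood at 194 and 7.14 FPKM. The limma test passed 9 members of this list, all higher in stele.

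The homeodomain factors of the CNA class did not all share the size of its difference. PHB stood at 125 FPKM in stele and 39.0 in columella root cap, PHV at 36.0 and 19.3, REV at 52.1 and 26.0 and HB-8 at 125 and 71.2, all under 4-fold. These 4 genes lay between 0.539 and 12.9 FPKM in every other library, so columella root cap was second to stele for each. MP, the auxin response factor upstream of TMO5, was higher in columella root cap at 188 FPKM against 72.7 in stele, also under 4-fold. KAN1, which opposes the CNA class in lateral organs, was the member called on the columella side, where it stood at 5.05 FPKM against 0.487 in stele, with its highest value of 24.6 in epidermis.

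The genes of xylem lay on both sides. Of 22 compared, 4 (18.2%) were called in stele and 7 (31.8%) in columella root cap, against 5.95% and 11.6% of all genes compared. The median difference was -1.48. The 4 in stele were NAC factors. VND1, VND2 and VND3, NAC factors that start vessel formation, stood at 12.5, 36.7 and 47.0 FPKM in stele and 0.363, 2.95 and 2.23 in columella root cap, and XND1, a NAC factor that restrains it, at 32.9 and 1.29 FPKM. These 4 also passed limma, with adjusted p between 1.8e-05 and 0.0459. With a pseudocount of 5 the difference of VND1 was 1.70, under the fold required.

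The other regulators of the list were under 4-fold. VND4, VND5 and VND7 were higher in stele, by 0.80, 0.24 and 0.57, and VND6, MYB46 and MYB83 higher in columella root cap, at -1.33, -0.99 and -0.24.

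The 7 on the columella side were genes of the secondary wall and of cell death. TED6 and TED7, membrane proteins of the cellulose machinery of vessels, stood at 3.51 and 2.17 FPKM in stele and 129 and 56.9 in columella root cap. LAC4 and LAC17, laccases that polymerize lignin, stood at 8.27 and 12.7 FPKM in stele and 90.9 and 171 in columella root cap, and IRX9 and IRX10, which build xylan, at 3.60 and 7.16 against 33.1 and 35.2 FPKM. MC9, a metacaspase of xylem death, stood at 1.59 and 35.2 FPKM but was highest in epidermis at 62.8. Only TED6 and TED7 of these 7 passed limma, with adjusted p of 0.0068 and 0.0102.

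The remaining wall genes pointed the same way at a smaller size. The secondary wall cellulose synthases CESA4, CESA7 and CESA8 stood at 24.4, 21.0 and 15.3 FPKM in stele and 77.3, 51.3 and 54.1 in columella root cap, and the vessel proteases XCP1 and XCP2 at 98.7 and 90.3 against 317 and 301. Columella root cap was the highest cell type for 14 of the 22 xylem genes and stele for 7. The list took 0.0794% of the summed FPKM in stele, 0.248% in columella root cap and 0.00487% to 0.0338% in the other 4 libraries. It also differed between the endodermis lines, with a median of 1.72 for line 1 minus line 2. The known traits of columella cells given above do not include xylem walls. The vascular patterning list took 0.232% of the summed FPKM in stele, 0.0707% in columella root cap and 0.0142% to 0.0315% in the other 4 libraries. In columella root cap, MP alone gave 188 of the 407 FPKM of that list. TMO5, SHR and CNA were lower there than in cortex, while PHB, PHV, REV and HB-8 were higher. Whether other cells entered the columella sort was not tested.

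**Figure D2:**
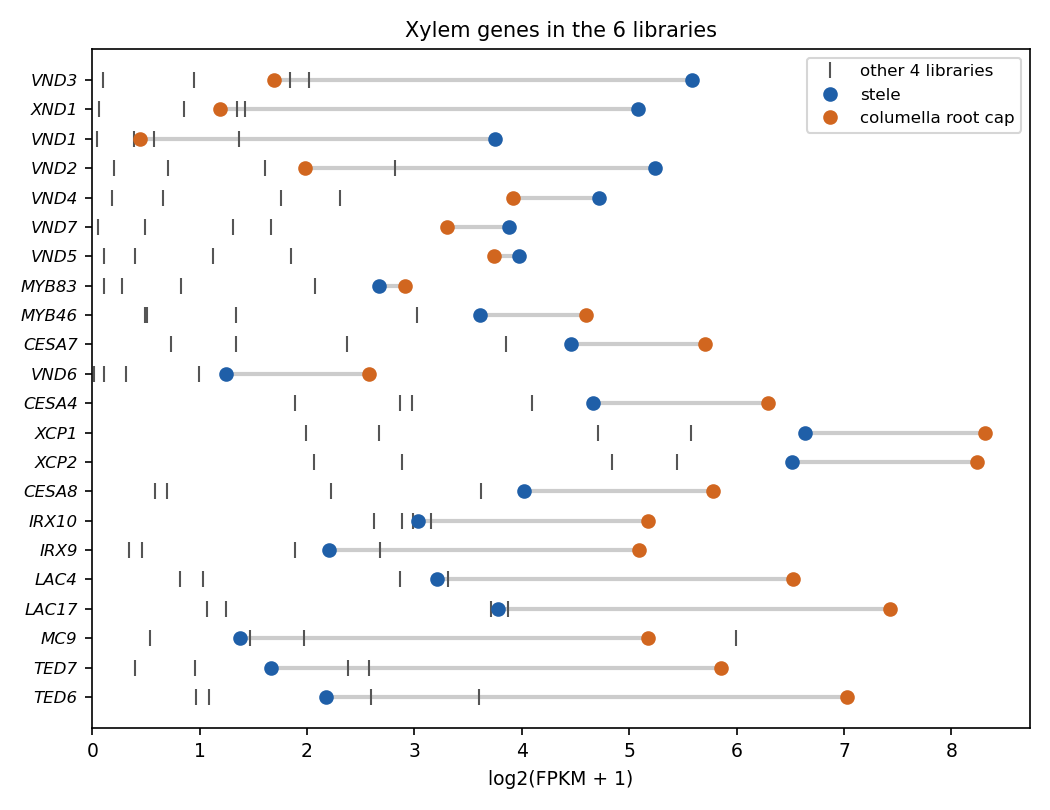
Levels of 22 xylem genes as log2(FPKM + 1), with stele in blue, columella root cap in orange and the other 4 libraries as ticks, ordered by the difference. VND3, XND1, VND1 and VND2 at the top are high in stele alone, and TED6, TED7, LAC4 and LAC17 at the bottom are high in columella root cap.

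Genes of phloem were called mostly in stele. Of 18 entries 13 were compared, with a median of 1.29. Of these 5 (38.5%) were called in stele and 1 (7.69%) in columella root cap, against 5.95% and 11.6% of all genes compared. SMXL3 and SMXL5, needed for phloem to form, stood at 21.9 and 11.9 FPKM in stele and 1.14 and 0.854 in columella root cap. CVP2, a phosphatase of protophloem, stood at 16.9 and 0.810 FPKM, the receptor kinase BAM3 (AT4G20270) at 15.9 and 2.12, and the peptide gene CLE25 at 17.1 and 1.42. Other members of early phloem were under 4-fold, with APL and OPS at 0.39 and -0.06 and BRX higher in columella root cap at 1.70 against 0.543 FPKM. The sieve element genes NAC045, NAC086, NEN4 and SEOR1 were under 1 FPKM in both libraries. SUC2, the sucrose carrier of companion cells, was called in columella root cap at 15.2 against 1.65 FPKM, and endodermis line 1 was higher still at 32.2.

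Carriers that load the xylem in mature roots were low on both sides for most members. Of 7 entered, 5 were compared, with 1 (20%) called on each side and a median of -0.97. The shares of all genes compared were 5.95% in stele and 11.6% in columella root cap. HMA4, a zinc pump, stood at 9.09 FPKM in stele and 1.41 in columella root cap, and BOR1, a borate exporter, at 4.37 and 21.7. SKOR and HKT1 were under 1 FPKM in both libraries.

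Genes of cell division were called mostly in stele. Of 27 genes of the G2 and M phases, all compared, 24 (88.9%) were called in stele, against 5.95% of all genes compared. This was the highest stele share of any list, and none was called in columella root cap, with a median of 2.87. Stele was the highest of the 5 cell types for 26 of the 27 and columella root cap the lowest for 22. Of 21 genes of the G1 and S phases, 12 (57.1%) were called in stele and 1 (4.76%) in columella root cap, with a median of 2.15. No gene of either list passed limma at an adjusted p under 0.05, while 20 of the G2 and M list and 4 of the G1 and S list had an unadjusted p under 0.05. Both lists also differed between the endodermis lines, where their medians for line 1 minus line 2 were -1.68 and -1.58, and the part of this spread in the result was not tested.

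CYCB1;2, a cyclin of mitosis, stood at 41.9 FPKM in stele, 3.57 in columella root cap, 7.28 in epidermis, 10.02 in cortex and 7.94 and 28.0 in endodermis lines 1 and 2. CDKB2;2, a kinase that drives entry into mitosis, stood at 48.6 FPKM in stele, 4.17 in columella root cap, 6.10 in epidermis, 11.2 in cortex and 6.92 and 27.2 in the endodermis lines. CYCB2;1 stood at 17.9 FPKM in stele, 0.968 in columella root cap and 1.99 to 8.63 in the other 4 libraries. The order was the same for all 3 genes, with stele first, endodermis line 2 second and columella root cap last. CYCB1;4 had the largest difference of the list, 3.48 ± 1.3 (SE) with an adjusted p of 0.0797 in limma, at 49.98 against 3.56 FPKM. Genes of the dividing cell plate lay on the same side, with the syntaxin KN at 80.5 and 10.8 FPKM and the kinesin HIK at 26.5 and 2.22.

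The 3 exceptions in the G2 and M list were TES, a kinesin of the cell plate that was higher in columella root cap at 25.4 against 10.02 FPKM, the Aurora kinase AUR2 at 25.8 in stele against 17.3, and the kinesin PAKRP1 at 9.15 against 3.11. All 3 were under 4-fold. In the G1 and S list, PCNA1, the sliding clamp of DNA replication, stood at 93.3 FPKM in stele and 9.36 in columella root cap. MCM2 and MCM6, subunits of the replication helicase, stood at 45.5 and 31.3 FPKM in stele and 9.47 and 4.94 in columella root cap, while MCM4 and MCM5 lay just under 4-fold at 1.99 and 1.77. Ribonucleotide reductase, which makes the building blocks of DNA, was divided. Its subunits RNR1 and TSO2 stood at 73.4 and 136 FPKM in stele against 14 and 28.4, and RNR2A was the 1 member called in columella root cap, at 33.2 against 5.81.

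The promoters of these genes are shown because genes of the same phase are known to share sites there: MYB factors bind the core AACGG in promoters of the G2 and M phases, and E2F factors bind sites such as TTTCCCGC in those of the S phase. Sequences were read from the RefSeq assembly TAIR10.1, 150 bases up to the annotated gene start, with the motif in capitals on either strand. The first 3 belong to the G2 and M list (CDKB2;2 at chr1:7294747-7294896, minus strand; CYCB2;1 at chr2:7663905-7664054, plus strand; CYCB1;2 at chr5:1861704-1861853, minus strand), with AACGG or its reverse CCGTT marked. The last 2 belong to the G1 and S list (MCM6 at chr5:18010668-18010817, minus strand; MCM2 at chr1:16970064-16970213, plus strand), with TTTCCCGC or its reverse marked.
CDKB2;2: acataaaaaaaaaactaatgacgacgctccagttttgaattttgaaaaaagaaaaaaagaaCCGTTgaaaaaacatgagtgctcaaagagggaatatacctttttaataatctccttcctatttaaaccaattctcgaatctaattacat
CYCB2;1: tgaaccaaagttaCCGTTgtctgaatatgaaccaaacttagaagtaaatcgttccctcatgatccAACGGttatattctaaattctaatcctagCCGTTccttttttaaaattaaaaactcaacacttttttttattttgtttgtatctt
CYCB1;2: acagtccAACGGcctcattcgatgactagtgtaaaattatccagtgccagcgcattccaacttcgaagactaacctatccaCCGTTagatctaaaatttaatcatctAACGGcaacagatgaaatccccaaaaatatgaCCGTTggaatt
MCM6: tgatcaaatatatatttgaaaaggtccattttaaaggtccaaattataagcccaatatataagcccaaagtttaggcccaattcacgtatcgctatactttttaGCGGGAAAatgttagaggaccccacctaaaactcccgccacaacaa
MCM2: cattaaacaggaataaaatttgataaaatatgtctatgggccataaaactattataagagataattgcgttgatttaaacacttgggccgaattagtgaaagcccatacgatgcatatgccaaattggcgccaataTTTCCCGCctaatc

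They are the called members with the largest differences whose upstream window overlaps no other gene and holds the motif within the 150 bases. Over 250 bases upstream, AACGG was found in 17 of 27 promoters (63%) of the G2 and M list, with 2 or more matches in 11. The same motif was in 20.6% of 27443 protein-coding promoters and in 22.5% of those of the genes compared. Among genes called in stele the share was 27.9%, and among those called in columella root cap 20.3%. An E2F site, searched as TTTCCCGC, TTTGGCGC, TTTCGCGC or TTTGCCGC on both strands, was in 9 of 21 promoters (42.9%) of the G1 and S list. It was in 1.41% of all, in 1.57% of genes compared, in 2.76% of genes called in stele and in 1.04% of those called in columella root cap. Matches of different motifs were counted separately and may overlap. A match describes the letters and does not show binding.

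Regulators that set the pace of division gave a mixed picture. Of 9 D cyclins compared, 2 (22.2%) were called in stele, against 5.95% of all genes compared, and none in columella root cap. The 2 were CYCD3;2 at 95.5 against 15.6 FPKM and CYCD1;1 at 5.72 against 0.555. CYCD3;3 was higher in columella root cap, at 113 against 43.9 FPKM, under 4-fold. Of 15 inhibitors and endocycle genes, 2 (13.3%) were called in stele and 1 (6.67%) in columella root cap, with a median of -0.13. The shares of all genes compared were 5.95% and 11.6%. The inhibitors SIM and KRP3 stood at 29.4 and 19.2 FPKM in stele and 3.34 and 2.92 in columella root cap, and KRP7 at 5.77 and 29.4. CCS52A1 and CCS52A2, which promote endocycles, and the retinoblastoma gene RBR1 differed by 0.39, -0.13 and 0.10.

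Core histones, kinesins and tubulins also had more calls in stele than in columella root cap. Of 44 core histone genes compared, 17 (38.6%) were called in stele and none in columella root cap, with a median of 1.57. Of 42 kinesins 16 (38.1%) were called in stele and 1 (2.38%) in columella root cap. The shares of all genes compared were 5.95% and 11.6%. HIK of the G2 and M list is also counted among the kinesins. Stele was the highest cell type for 28 histones, 29 kinesins and 11 tubulins. Of 21 tubulins 4 (19.0%) were called in stele and none in columella root cap, with TUB8 at 388 against 31.2 FPKM and TUB5 at 83.2 against 6.95. The summed FPKM of the tubulins was 3495.8 in cortex and 3266.5 in stele. TUB5 was highest in cortex at 391. Histones and tubulins have near-identical copies among which fragments may be split, so values of single genes are uncertain.

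**Figure D3:**
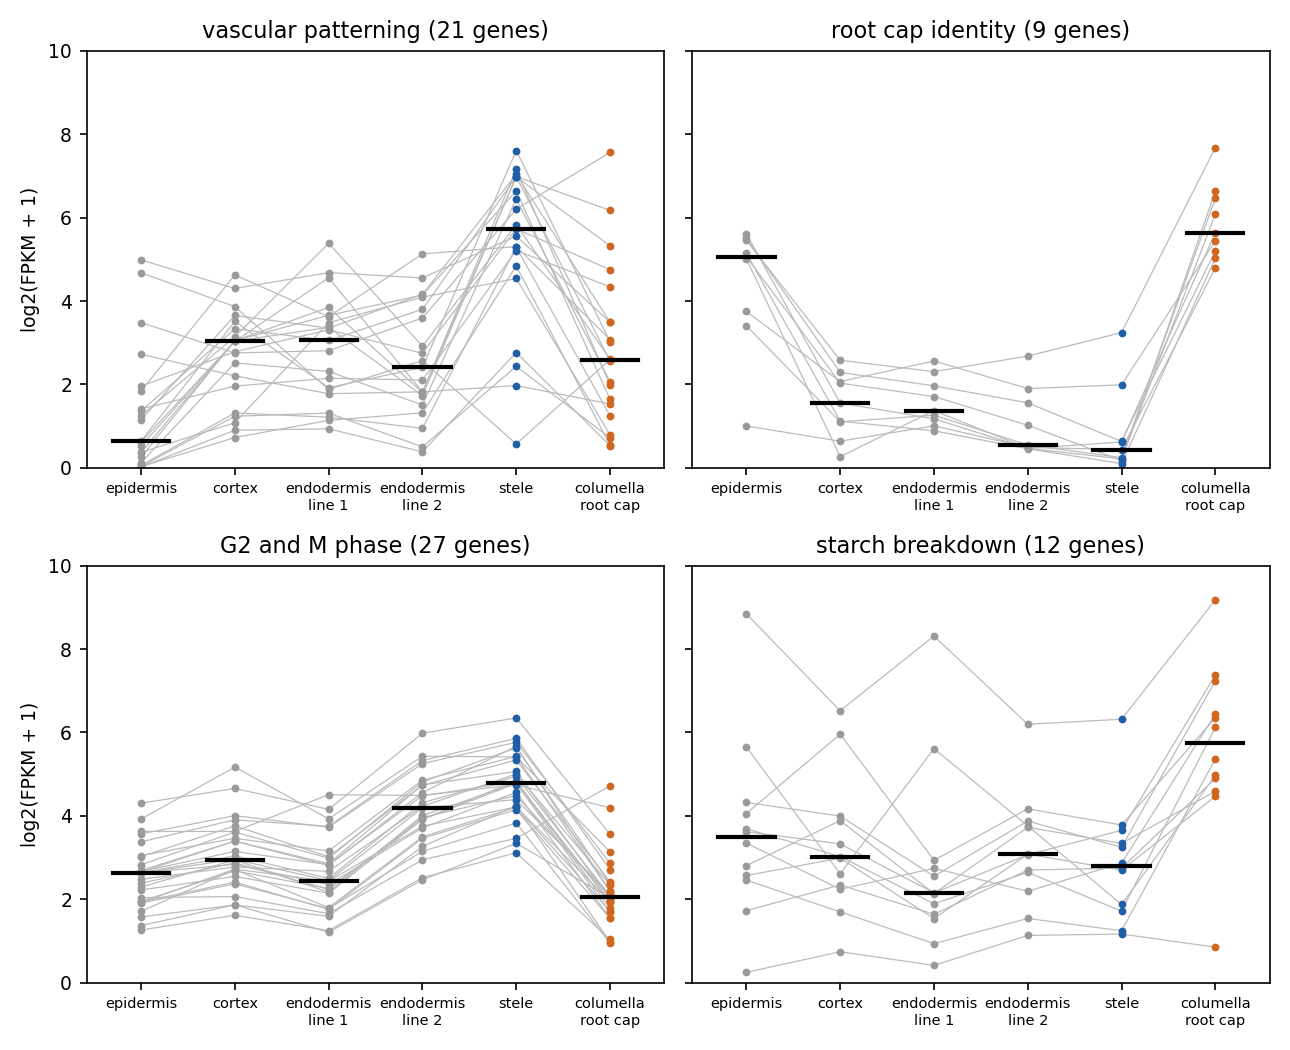
Levels of 4 gene lists as log2(FPKM + 1) in the 6 libraries; each line is a gene and each bar the median of the list. The G2 and M genes are highest in stele and next in endodermis line 2, and most root cap genes are high in columella root cap and in epidermis.

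Ribosomal protein genes had the most calls of any family on the stele side. The family was drawn by product name, leaving out names with mitochondrial or plastid words, which does not show that every member is cytosolic. Of its 323 genes 294 were compared, with a median of 1.91. Of these 115 (39.1%) were called in stele and 2 (0.68%) in columella root cap, against 5.95% and 11.6% of all genes compared. They took 20.8% of the summed FPKM in stele and 5.55% in columella root cap, with 7.02% in epidermis, 12.6% in cortex and 6.29% and 17.5% in endodermis lines 1 and 2. Stele was the highest cell type for 272 and columella root cap the lowest for 221. Only 2 passed limma, both higher in stele, and 13 had an unadjusted p under 0.05. Their median between the endodermis lines was -1.45, so this group too varied between libraries of 1 cell type. AT5G09500, of the S19 family, stood apart within the group, at 14.4 FPKM in stele and 1.55 or less in each of the other 5 libraries.

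Ribosomal protein promoters are known for the telo box AAACCCTA and for site II elements, searched here as TGGGCC or TGGGCT. The telo box was in 53 of 323 promoters (16.4%) of this family against 4.49% of all and 3.71% of genes compared. It was in 6.47% of genes called in stele and in 1.83% of those called in columella root cap. A site II element was in 187 of 323 (57.9%) against 19.2% of all and 23.7% of genes compared. It was in 31.7% of genes called in stele and in 12.3% of those called in columella root cap. The promoters of AT3G11120 (L41 family, chr3:3480870-3481019, plus strand, 813 FPKM in stele and 135 in columella root cap) and AT5G60670 (L11 family, chr5:24381600-24381749, minus strand, 274 and 51.9 FPKM), chosen by the same rule, show the telo box or its reverse in capitals close to the gene start.
AT3G11120: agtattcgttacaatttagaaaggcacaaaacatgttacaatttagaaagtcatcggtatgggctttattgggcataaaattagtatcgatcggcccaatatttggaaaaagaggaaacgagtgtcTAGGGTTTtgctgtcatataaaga
AT5G60670: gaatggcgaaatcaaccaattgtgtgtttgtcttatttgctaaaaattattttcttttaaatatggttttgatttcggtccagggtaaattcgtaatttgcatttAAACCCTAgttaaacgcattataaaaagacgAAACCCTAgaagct

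On the columella side, all 9 genes of root cap identity were called, against 11.6% of all genes compared, with a median of -4.93. Like the other lists, this one was chosen with earlier results of these data known. SMB, the NAC factor that ends division and drives maturation of root cap cells, stood at 0.130 FPKM in stele, 98.2 in columella root cap, 32.4 in epidermis, 3.09 in cortex and 2.27 and 1.03 in the endodermis lines. FEZ, the NAC factor that promotes divisions of root cap stem cells, stood at 0.187 FPKM in stele, 87.2 in columella root cap, 9.61 in epidermis, 1.15 in cortex and 1.40 and 0.464 in endodermis. Both were highest in columella root cap with epidermis second. The differences were -6.46 ± 1.33 (SE) for SMB and -6.21 ± 1.15 (SE) for FEZ, with adjusted p of 7.9e-05 and 7.5e-06 in limma.

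The relatives BRN1 and BRN2, which act in the release of root cap cells, stood at 0.162 and 0.0736 FPKM in stele and 66.8 and 31.6 in columella root cap, with 47.8 and 34.4 in epidermis. ARF10 and ARF16, auxin response factors of columella differentiation, stood at 2.98 and 0.552 FPKM in stele and 42.4 and 35.8 in columella root cap. BRN2 and ARF16 were thus higher in epidermis than in columella root cap, ARF16 at 44.4 FPKM. The wall enzymes CEL5, a cellulase of cell separation, and AT1G65570, a pectin lyase-like protein, stood at 8.47 and 0.538 FPKM in stele and 204 and 48.8 in columella root cap. COBL2 was the member with least in epidermis, at 1.00 FPKM there, 0.356 in stele and 26.7 in columella root cap. The limma test passed 8 of the 9, all but ARF10 (adjusted p = 0.102).

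Of 6 genes of programmed cell death 4 (66.7%) were called in columella root cap, against 11.6% of all genes compared. The list median was 27.7 FPKM in columella root cap and 27.3 in epidermis, and columella root cap was the highest cell type for 3. The nuclease BFN1, a target of SMB that clears nucleic acids from dead root cap cells, stood at 1.20 FPKM in stele and 23.9 in columella root cap. The ribonuclease RNS3 stood at 1.25 and 38.2 FPKM, and the carboxypeptidase SCPL48 at 8.70 and 235. AT2G14095 lay just under the fold at -1.997, with 0.0623 and 3.24 FPKM. The aspartyl protease AT4G04460 did not differ by 4-fold, at 24.0 FPKM in stele and 19.0 in columella root cap. RNS3, AT2G14095 and AT4G04460 were highest in epidermis, at 46.6, 11.8 and 34.2 FPKM.

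The RGF peptides, ligands that maintain the meristem, held the most extreme pair of any list. Of 9 entries 6 were compared and 4 (66.7%) called in columella root cap, against 11.6% of all genes compared, with none in stele. RGF3 stood at 5.67 FPKM in stele, 1944 in columella root cap, 26.9 in epidermis, 7.60 in cortex and 16.7 and 14.8 in endodermis. Its difference was -8.19 ± 1.13 (SE), and that of RGF2 -9.72 ± 1.31 (SE), with adjusted p of 3.6e-10 and 1.3e-10 in limma. RGF1 and RGF5 were far lower, at 27.6 and 31.4 FPKM in columella root cap and 5.34 and 4.28 in stele. RGF4, at 26.3 FPKM in stele and 10.8 in columella root cap, was highest in endodermis line 2 at 47.2.

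The candidate receptors lay on the other side. The list held 5 leucine-rich repeat receptor kinases, which the reference leaves without symbols, and TPST, the enzyme that sulfates the peptides. AT5G56040 was called in stele at 45.2 against 3.06 FPKM, with an adjusted p of 0.0317 in limma, and AT5G48940 at 51.4 against 11.1. AT5G56040 was nevertheless highest in cortex at 74.4 FPKM. The other 3 kinases were higher in stele by 0.38 to 0.76, and TPST was higher in columella root cap at 38.6 against 19.2 FPKM, under 4-fold.

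The genes of gravity signalling had the largest median of all lists, -5.98 over 5 genes compared. Of these 4 (80%) were called in columella root cap, against 11.6% of all genes compared. AT1G17400, AT1G72490 and AT1G19115 were entered in the list as LAZY family members, though the reference names none of them. AT1G17400 stood at 0.0554 FPKM in stele, 151 in columella root cap and 0.231 to 1.01 in the other 4 libraries. AT1G72490 stood at 0.354 and 336 FPKM, and AT1G19115 at 0.465 and 91.2, with 10.09 or less elsewhere for both. All 3 were thus far higher in the columella library than in the other 5, and passed limma with adjusted p from 3.8e-12 to 7.9e-05. ARL2, a J-domain protein of gravity signal transduction, stood at 3.86 and 39.9 FPKM, whereas its relative ARG1 was even at 34.9 and 27.0.

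Factors of the stem cell niche were higher in columella root cap for 4 of 6 genes compared, where 46.5% of all genes compared were higher. There was 1 call (16.7%), against 11.6% of all genes compared. PLT1, an AP2 factor of the root stem cells, stood at 15.7 FPKM in stele, 79.6 in columella root cap and 1.88 to 7.15 in the other 4 libraries. PLT2 stood at 10.6 and 43.6 FPKM, just under 4-fold. WOX5, the marker of the quiescent centre, was low throughout, at 1.08 FPKM in stele, 0.484 in columella root cap and 3.03 or less elsewhere. None of these genes passed limma, and none had an unadjusted p under 0.05.

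Genes of starch synthesis and of starch breakdown were called in columella root cap alone. Of 16 genes of synthesis compared, 6 (37.5%) were called in columella root cap and none in stele, with a median of -1.16. Of 12 genes of breakdown, 9 (75%) were called in columella root cap and none in stele, with a median of -2.98. The shares of all genes compared were 11.6% in columella root cap and 5.95% in stele. Whether the lists differ from each other was not tested. GBSS1, which makes amylose, stood at 1.3 FPKM in stele, 153 in columella root cap, 2.08 in epidermis, 1.23 in cortex and 1.85 and 1.92 in endodermis, so it was high in 1 library alone. Its difference was -6.06 ± 1.24 (SE), with an adjusted p of 6.2e-05 in limma.

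ADP-glucose pyrophosphorylase makes the precursor of starch. Its small subunit ADG1 stood at 6.75 FPKM in stele and 138 in columella root cap, and its large subunit APL4 at 1.02 and 62.6. The other large subunits compared, APL2 and APL3, were even, at 12.5 and 8.13 FPKM in stele against 12.0 and 9.37. PGM1, which feeds the pathway, and the branching enzymes SBE2.1 and SBE2.2 stood at 11.3, 23.6 and 11.4 FPKM in stele and 53.9, 98.5 and 54.5 in columella root cap. The synthases SS1, SS2 and SS3 were higher in columella root cap by less, between -0.95 and -1.26, and SS4 was even at 0.24.

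Among the enzymes of breakdown, GWD1, which phosphorylates the granule surface, stood at 11.6 FPKM in stele and 165 in columella root cap. SEX4, which removes these phosphates, stood at 1.37 and 40.2 FPKM, and the debranching enzyme ISA3 at 8.50 and 150. MEX1, the maltose exporter of plastids, stood at 2.29 and 68.6 FPKM, and the amylase AMY3 at 6.29 and 86.0. The beta-amylase BAM1 had the highest level, 579 FPKM in columella root cap against 78.8 in stele, and was also high in epidermis at 459 and endodermis line 1 at 317. LDA, a debranching enzyme, was low in both at 1.25 and 0.807 FPKM. Both starch lists also differed between the endodermis lines, with medians of -0.84 and -0.83 for line 1 minus line 2.

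Auxin genes divided between the tissues. LAX3, an influx carrier, stood at 286 FPKM in stele, 20.09 in columella root cap, 1.90 in epidermis, 49.9 in cortex and 76.0 and 36.6 in endodermis lines 1 and 2, so it was highest in stele. PIN4, a carrier of the root tip, was called in columella root cap at 547 against 86.6 FPKM, and PIN2, the carrier of the outer layers, at 42.8 against 1.40, with higher values of 106 and 160 in epidermis and cortex. PIN3 and PIN7, which redistribute auxin in the columella after a turn, were higher there at 171 and 103 FPKM against 70.0 and 53.9, under 4-fold. The influx carrier AUX1 stood at 162 against 67.5 FPKM.

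Of 7 genes of auxin synthesis 4 (57.1%) were called in columella root cap, against 11.6% of all genes compared. All were of the YUC family that carries out the last step. YUC3 stood at 319 FPKM in columella root cap and 8.30 in stele, YUC8 at 163 and 9.46, and YUC9 at 50.8 and 1.40. YUC7 stood at 24.1 and 0.0882 FPKM, with 0.374 or less in the other 4 libraries, and a difference of -4.53 ± 0.58 (SE). All 4 passed limma, with adjusted p between 1.7e-11 and 0.0163. TAA1, the enzyme of the step before, was even at 50.4 FPKM in stele and 35.9 in columella root cap. Of 8 type-A regulators, which cytokinin induces, only ARR3 (12.5%) was called, in columella root cap, close to the 11.6% of all genes compared. ARR3 stood at 52.4 FPKM there and at 4.66 in stele, the lowest of the 6 libraries.

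The series title concerns DNA methylation by cell type, and the genes of its machinery fell on both sides. RNA-directed methylation uses small RNAs made through polymerase IV to guide new methylation, while maintenance enzymes copy the marks after replication. Of 9 maintenance genes compared, 3 (33.3%) were called in stele, against 5.95% of all genes compared, and none in columella root cap, with a median of 1.51. CMT3, which keeps CHG methylation, stood at 53.1 FPKM in stele, 5.56 in columella root cap, 10.9 in epidermis, 23.0 in cortex and 10.3 and 34.5 in endodermis lines 1 and 2. MET1, which keeps CG methylation, stood at 36.9 FPKM in stele, 5.09 in columella root cap, 5.92 in epidermis, 16.2 in cortex and 6.42 and 22.6 in endodermis. Both genes thus had the order of the mitotic genes, with stele first, endodermis line 2 second and columella root cap last.

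VIM3, which guides MET1, stood at 10.5 and 1.60 FPKM, while VIM1 was even at 52.1 and 42.6. The remodeller DDM1 stood at 28.3 and 8.46 FPKM, under 4-fold. None of the maintenance genes passed limma, and 2 had an unadjusted p under 0.05. Their median between the endodermis lines was -1.51, close in size to that between stele and columella root cap.

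Of 20 genes of RNA-directed methylation compared, 2 (10%) were called in columella root cap, close to the 11.6% of all genes compared, and none in stele, with a median of 0.10. NRPD1, the largest subunit of polymerase IV, stood at 0.211 FPKM in stele, 14.1 in columella root cap, 0.640 in epidermis, 0.352 in cortex and 0.753 and 0.643 in endodermis. CLSY1, a remodeller that brings polymerase IV to its targets, stood at 2.82 FPKM in stele, 24.3 in columella root cap and 0.523 to 2.18 in the other 4 libraries. Columella root cap was thus above every other library for both. The differences were -3.64 ± 0.66 (SE) for NRPD1, with an adjusted p of 3.8e-06 in limma, and -2.73 ± 0.96 (SE) for CLSY1, with an adjusted p of 0.0559. With a pseudocount of 5 they were -1.87 and -1.90, both under 4-fold.

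CLSY2, named chromatin remodeling 42 in the reference, stood at 1.99 FPKM in columella root cap and 0.0519 or less in each other library, under 4-fold on this scale but with an adjusted p of 0.00033 in limma. RDR2, which makes the double strand, and IDN2 stood at 6.00 and 19.3 FPKM in stele and 18.7 and 53.6 in columella root cap, and DCL3, the dicer of the pathway, at 2.41 and 4.51. NRPE1, the largest subunit of polymerase V, stood at 4.53 against 6.12 FPKM and the methyltransferase DRM2 at 10.5 against 9.49, while NRPD2, a subunit of both polymerases, differed by -0.28 and SUVH2 by 1.27. The Argonautes that bind the small RNAs were higher in stele, AGO4 at 60.1 against 22.2 FPKM and AGO6 at 4.67 against 1.07, under 4-fold. Of 5 demethylation genes 1 (20%) was called in columella root cap, against 11.6% of all genes compared, and none in stele. It was MBD7, at 31.3 against 4.02 FPKM. The glycosylases ROS1 and DME were even, at 8.14 and 11.0 FPKM in columella root cap and 5.67 and 11.7 in stele. The median of that list, 0.02, turned to -0.01 with size factors.

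**Figure D4:**
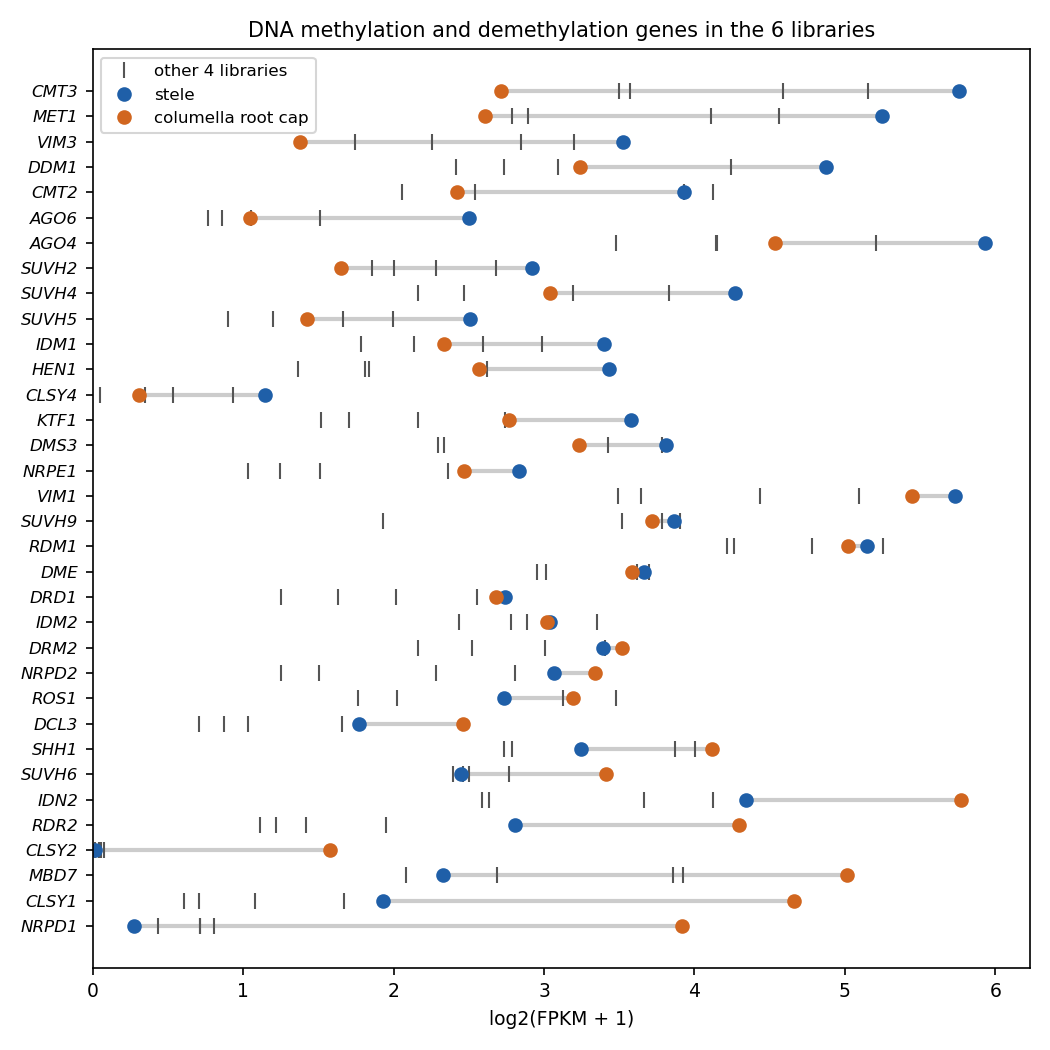
Levels of 34 genes of DNA methylation and demethylation as log2(FPKM + 1), with stele in blue, columella root cap in orange and the other 4 libraries as ticks, ordered by the difference. CMT3 and MET1 at the top are lowest in columella root cap, and NRPD1 and CLSY1 at the bottom are high in columella root cap alone.

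Families of wall enzymes split by member. Of 17 expansins, which loosen walls, 4 (23.5%) were called in stele and 5 (29.4%) in columella root cap. The shares of all genes compared were 5.95% and 11.6%. EXPA15 stood at 506 FPKM in stele and 32.6 in columella root cap, and EXPA9 at 3.50 and 557, with 635 in epidermis. Of 42 pectin methylesterases and their inhibitors 2 (4.76%) were called in stele and 10 (23.8%) in columella root cap. The latter were led by PE11 at 0.0986 FPKM in stele and 132 in columella root cap. Of 11 laccases 6 (54.5%) were called in columella root cap and 1 (9.09%) in stele, LAC6 at 52.0 against 1.56 FPKM. Of 40 genes with pectin lyase-like product names 8 (20%) were called in stele and 7 (17.5%) in columella root cap. These names do not separate the families by enzyme. PME5, whose symbol stands for a pectin methylesterase, was counted here and stood at 36.4 and 0.986 FPKM. Among 32 class III peroxidases 1 (3.1%) was called in stele, AT2G34060 at 40.9 against 1.59 FPKM, and 8 (25%) in columella root cap.

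Enzymes of detoxification and special metabolism had more calls in columella root cap than in stele. Of 44 glutathione S-transferases 24 (54.5%) were called in columella root cap and none in stele, with a median of -2.45. The shares of all genes compared were 11.6% and 5.95%. These transferases took 2.28% of the summed FPKM in columella root cap, against 0.148% in stele and 2.11% in epidermis. GSTU19 stood at 181 FPKM in stele and 4965 in columella root cap. Of 94 cytochrome P450 genes 39 (41.5%) were called in columella root cap and 2 (2.13%) in stele. Both of the latter make brassinosteroids, CPD at 152 against 10.8 FPKM and DWF4 at 19.5 against 3.52. CYP81F4, which modifies indole glucosinolates, stood at 1059 FPKM in columella root cap and 4.55 in stele. Of 86 glycosyltransferases of UDP sugars 19 (22.1%) were called in columella root cap, 1 (1.16%) in stele and 66 in neither, with a median of -0.56. Their summed FPKM was 3368 in columella root cap and 3373 in epidermis, and that of the cytochrome P450 genes 3081 and 2957.

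Of 41 WRKY factors 20 (48.8%) were called in columella root cap, against 11.6% of all genes compared, and none in stele, with a median of -1.97. Their median level was highest in epidermis, at 24.5 FPKM against 12.7 in columella root cap and 1.88 in stele. Stele was the lowest cell type for 29 of them and columella root cap the highest for 15. WRKY6 stood at 150 FPKM in columella root cap and 0.522 in stele, and WRKY23 at 72.3 and 1.06. Of 19 DOF factors 7 (36.8%) were called in stele and 3 (15.8%) in columella root cap, against 5.95% and 11.6% of all genes compared. AT4G24060 stood at 77.2 FPKM in stele and 3.61 in columella root cap, and AT1G21340 at 0.272 and 250. Aquaporins were divided, with PIP2;8 at 57.3 FPKM in stele and 2.28 in columella root cap, and the boric acid channel NIP5;1 at 0.380 and 34.9.

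Genes that respond to stress and to protoplasting were also called mostly in columella root cap. WRKY33 and WRKY40 belong both to the stress list and to the WRKY family, so these groups are not separate. Of 11 list genes compared, 9 (81.8%) were called in columella root cap, against 11.6% of all genes compared. None was called in stele, and the median was -3.13. The kinase MPK3 stood at 11.5 FPKM in stele, 356 in columella root cap, 74.2 in epidermis, 29.8 in cortex and 42.3 and 25.2 in endodermis lines 1 and 2. WRKY40 stood at 13.1 FPKM in stele and 408 in columella root cap, with 297 in epidermis and 342 in endodermis line 1, and the jasmonate repressor JAZ1 at 76.4 and 675 FPKM. Stele was the lowest cell type for 9 of the 11. The list took 0.0503% of the summed FPKM in stele, 0.417% in columella root cap and 0.0878% to 0.364% in the other 4 libraries, and its median between the endodermis lines was 1.91. The part of this response in the columella calls of the WRKY, glutathione and jasmonate-linked genes was not tested.

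Markers of other layers were low in both libraries. Of 9 genes of epidermis and root hairs 6 were compared and none was called, and the list took 0.00217% of the summed FPKM in stele and 0.00233% in columella root cap against 0.150% in epidermis. WER stood at 2.57 FPKM in stele and 6.97 in columella root cap against 91.3 in epidermis. Of 7 cortex and endodermis markers none was called, and they took 0.00403% and 0.00344%, against 0.811% and 0.0689% in endodermis lines 1 and 2. CASP1, the Casparian strip protein, stood at 1.44 and 4.29 FPKM against 2045 in endodermis line 1. SCR was the exception in stele, at 14.7 FPKM against 3.35 in columella root cap, and passed 4-fold with a pseudocount of 0.1, at 2.103.

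**Figure D5:**
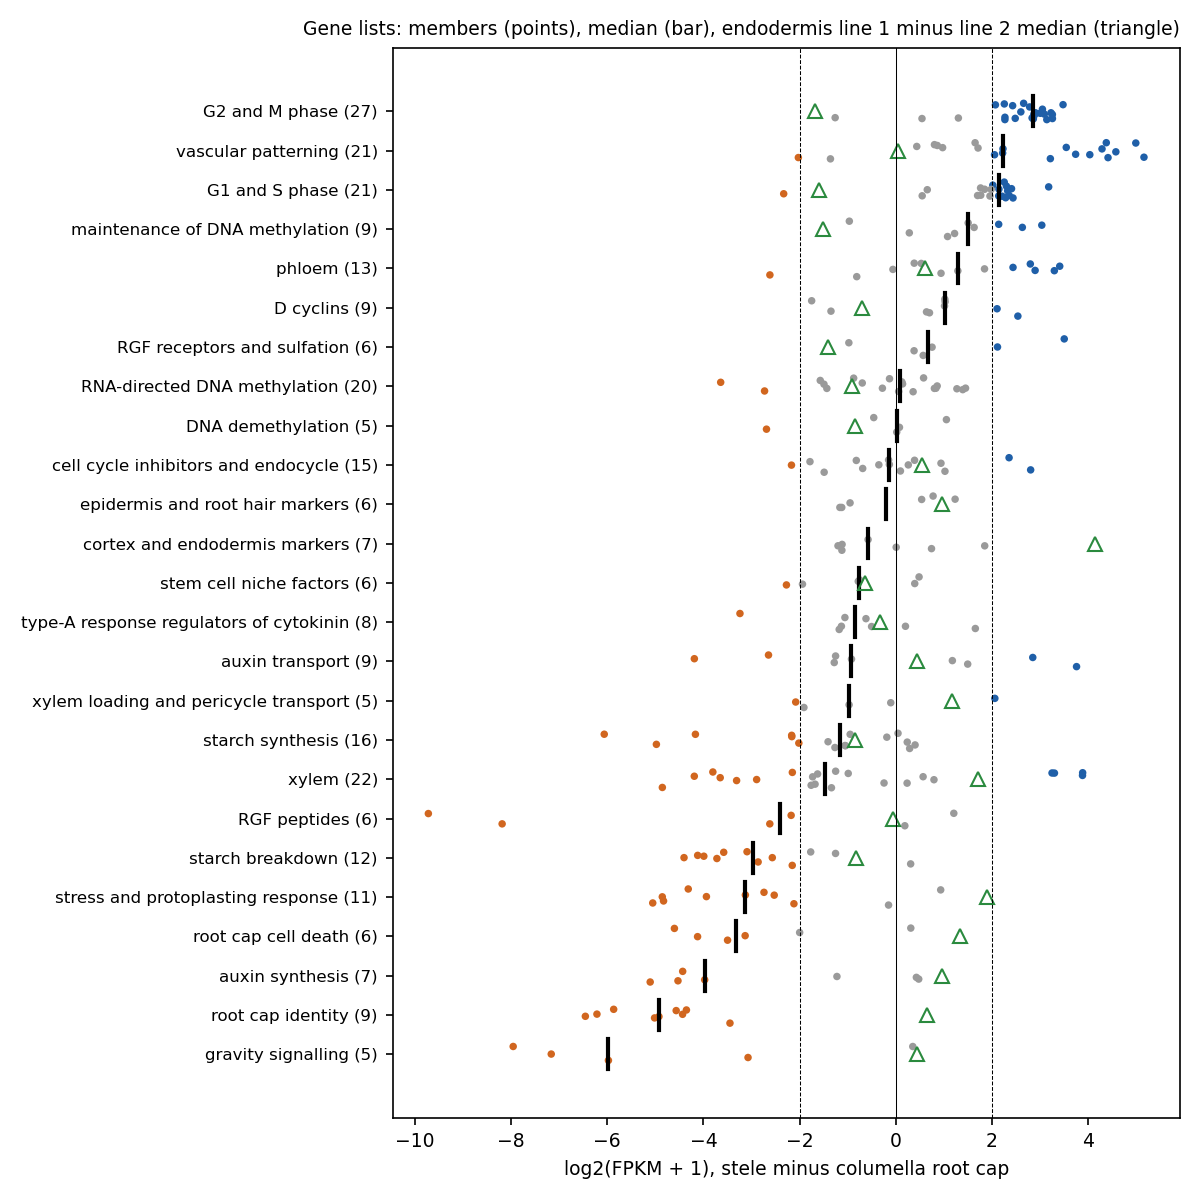
Differences of log2(FPKM + 1), stele minus columella root cap, for the members of 25 gene lists (points, blue and orange past 4-fold), with the list median as a bar and the median of endodermis line 1 minus line 2 as a green triangle. The G2 and M list lies highest in stele and the gravity list highest in columella root cap, and triangles far from 0 mark lists that also differed between libraries of 1 cell type.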

How the data were processed

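RNA sequencing values were used from 6 libraries of sorted root cells in 5 cell types. Per the labels' protocols, RNA of sorted cells went into polyA+ TruSeq libraries. The authors deposited FPKM, 1 file per library with 33554 loci. The submitters' processing notes name the build TAIR10 and the tools Bowtie 0.12.7, TopHat 1.3.1 and Cufflinks 2.0.2 but not what each did. The annotation, the use of strand and the handling of repeated sequence are also missing from the notes, so overlapping genes and near-identical copies are uncertain. Of the genes compared 6014 overlap another gene of the reference.

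Read totals are not given, so no counting interval could be set. The summed FPKM lay between 576322 and 642028, and 15999 (stele) to 17096 loci reached 1 FPKM. Judged from the smallest values, a single fragment was worth 1.27 times as much FPKM in columella root cap as in stele, a rough sign of a shallower library. An exact 0 can be a failed estimate.

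Names and products came from RefSeq TAIR10.1 (32807 identifiers matched). Promoters are 250 bases upstream of its gene starts. The files hold no coordinates. A pseudocount of 1 was added before log2, and a gene needed 1 FPKM in 1 of the 2 libraries. Levels of genes are in FPKM and thus per length. The secondary test was limma 3.58.1 (R 4.3.3; eBayes with trend, Benjamini-Hochberg over 18028 genes) over all 6 libraries with a single residual degree of freedom (1), which the endodermis lines give. Its prior degrees of freedom were infinite, so its p-values rest wholly on a spread shared across genes. Genes named are the 15 largest differences per side, the reporter gene and markers, and the called members of 25 gene lists, at most 8 per list; members of 16 families drawn by product name, and other list members, are examples chosen after their values were seen. The members and lists were chosen with earlier results of these data known. Alternatives covered the pseudocount, the minimum, the fold, 3 scalings and limma settings. Leaving out loci that overlap another gene, and size factors for the endodermis pair, were added after seeing the data. The computations were tested on simulated data and run in Python 3.11.15 with pandas 2.3.3 and numpy 2.4.6. One gene of the auxin transport list is not reported here.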

Additional observations from a re-analysis of the deposited data

How the results depend on the processing

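The 4-fold counts, 1072 in stele and 2087 in columella root cap, moved most with the pseudocount and the fold: 1698 in stele with a pseudocount of 0.1, 492 and 1208 with 5, 4113 and 4335 past 2-fold, and 204 and 1063 past 8-fold. With 1 FPKM needed in both libraries 1322 genes were called higher in columella root cap. Size factors, TPM, quantile normalization, other minimums and leaving out overlapping loci kept both counts within 1.5 times, and quantile normalization shifted the median of all genes by 0.10. The 1442 calls of limma became 714 without the trend, 680 with size factors and 0 with no minimum on FPKM. That last setting left 2800 genes with an unadjusted p under 0.05, and the prior degrees of freedom in these 3 settings were 31.4, 9.52 and 2.34. The 41 list and family medians changed sign in 14 cases over all settings, with some groups counted under several settings. With no minimum these were expansins -0.055, pectin lyase-like enzymes -0.017 and fasciclin-like proteins -0.052. With a minimum of 5 FPKM they were inhibitors and endocycle 0.10, epidermis and root hair markers 0.039, cortex and endodermis markers 1.85 (1 gene) and aquaporins 0.155. Root hair markers 0.039 and aquaporins 0.261 changed with 1 FPKM in both, and root hair markers 0.824 and aquaporins 0.238 with quantile normalization. DNA demethylation changed to -0.013 with size factors, -0.065 with TPM and -0.455 without overlapping loci. The cause was not tested. No named gene changed direction, and 26 of 131 dropped under 4-fold with a pseudocount of 5, among them SUC2, RGF1, RGF5, MCM6, CYCB2;1, VIM3, PGM1 and both SBE2 genes. No paired analysis was possible because each side has 1 library. Leaving out an endodermis line was not run, since limma then has no residual degree of freedom. With unknown depth and 1 library a side, values near 1 FPKM are the least certain.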
